A study of Homo sapiens with 5 samples.

Results

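Solute carriers are membrane proteins that move ions, nutrients, vitamins and metabolites across the plasma membrane and the membranes of organelles. The introns described here are those listed under a gene symbol made of SLC and a digit, in 3 tables of intron retention. The cells are DLD-1, an established human line from a colorectal adenocarcinoma. The tables listed 589 such introns, of 152 genes, among 34560 introns in all. An intron was compared within a table when its depth plus its spliced reads reached 10 in both libraries. This left 298 introns of 111 genes after WBP11 siRNA, 385 introns of 125 genes after SNW1 siRNA and 385 introns of 125 genes after WBP11 degradation. In all tables together 574 introns of 146 genes were compared, and 156 introns of 76 genes were compared in every table. The rule on symbols also takes in 17 introns of 4 genes that encode no carrier and are only named after one: SLC2A4RG, SLC4A1AP, SLC7A6OS and SLC9A3R2.

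The study asked how the loss of WBP11 or SNW1, proteins of the spliceosome, changes the splicing of polyadenylated RNA. DLD-1 LacZeo cells received 100 nM siRNA against WBP11 or against SNW1 for 72 h, and both were set against the same DLD-1 LacZeo control, whose label gives no treatment while the file headers call it a control RNAi. A degron arm used DLD-1 LacZeo osTIR1 cells, which carry the plant auxin receptor, with 500 µM auxin for 48 h in both libraries. In the depleted library of that arm an AID-tagged WBP11 transgene stood in for the knocked-out endogenous gene, per the design text, although its label names only osTIR1. Each group had 1 library and no degron library without auxin was analysed here, so line, tag and depletion cannot be told apart in that arm, and no difference below has a replicate check or a test.

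Most carriers are long proteins with many membrane-spanning segments, encoded over many exons. A retained intron usually brings a stop codon into frame and keeps the message in the nucleus or sends it to nonsense-mediated decay. In the gut epithelium, carriers of the anion exchanger, zinc, vitamin and nucleoside families take up or secrete their substrates at the cell surface, while the mitochondrial carrier family links the cytosol to the matrix.

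Retention is given as the deposited intron retention ratio in percent, the share of the reads at an intron that belongs to unspliced RNA. Higher and lower mean a difference of at least 10 percentage points from the control. Intervals are 95% Wilson intervals for a ratio and 95% Newcombe intervals for a difference. They cover counting error only and leave out variation between libraries. The number of reads at an intron was taken as its depth plus its spliced reads. Depth is a coverage signal and reads are not independent molecules, so the intervals are approximate and can be too narrow. Positions are hg38, and introns are numbered within a transcript of GENCODE release 29.

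The sequences of the introns with the clearest changes are shown where an annotated transcript that keeps the intron allowed its letters to be read. Capitals mark the first 6 bases, the 5' splice site, and the last 3 bases, the 3' splice site. SLC26A6 intron 13 had the largest rise after WBP11 siRNA, SLC4A2 intron 12 was higher after SNW1 siRNA alone among the 3 depletions, and SLC33A1 intron 3 is the A/T-rich counterpart that was higher after both siRNAs.
SLC26A6 intron 13, chr3:48629712-48629871, minus strand: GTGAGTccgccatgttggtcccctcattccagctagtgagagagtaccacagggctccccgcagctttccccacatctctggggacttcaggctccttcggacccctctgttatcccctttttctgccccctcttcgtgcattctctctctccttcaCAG
SLC4A2 intron 12, chr7:151070912-151071071, plus strand: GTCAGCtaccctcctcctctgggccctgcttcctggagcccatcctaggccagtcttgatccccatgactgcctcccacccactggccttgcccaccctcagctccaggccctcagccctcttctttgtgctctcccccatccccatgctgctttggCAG
SLC33A1 intron 3, chr3:155833586-155833856, minus strand: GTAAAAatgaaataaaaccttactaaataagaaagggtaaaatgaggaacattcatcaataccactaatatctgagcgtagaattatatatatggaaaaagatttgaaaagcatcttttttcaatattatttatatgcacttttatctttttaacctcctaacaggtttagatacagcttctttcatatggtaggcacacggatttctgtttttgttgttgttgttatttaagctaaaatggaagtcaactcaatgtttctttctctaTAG
All 3 begin with GT and end with AG. Their G+C share was 57.5% in SLC26A6 intron 13, 63.8% in SLC4A2 intron 12 and 28.4% in SLC33A1 intron 3. Of the 20 bases before the final 3, pyrimidines made up 17 in SLC26A6 intron 13, 14 in SLC4A2 intron 12 and 15 in SLC33A1 intron 3. Sequence was at hand for 76 of the 589 introns, or 12.9%, so a comparison of base composition over the whole set is void.

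The tables held 2987572 to 4927556 spliced reads for the depleted libraries and 3146434 to 5527186 for the controls, summed over listed introns, which are part of a library. WBP11 had 20 spliced reads after its siRNA against 312 in the control, and SNW1 had 31 after its siRNA against 401. In the degron arm WBP11 had 103 against 235 over 1 listed intron, which is RNA and not the tagged protein. Of 10 markers of colorectal epithelium, 3 to 4 had a listed intron, among them CDH1, CDH17 and KRT18, and of 6 markers of other cells none did. Absence from these tables shows nothing about expression. The markers' summed spliced reads were 30973 against 39696 after WBP11 siRNA, 21875 against 80606 after SNW1 siRNA and 13467 against 23801 after degradation, and the part of this in the results was not tested.

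After WBP11 siRNA, 27 of 298 solute carrier introns (9.06%) in 15 genes were higher and 5 in 4 genes were lower, against 9.07% of all introns higher and 1.69% lower. After SNW1 siRNA 76 of 385 (19.7%) in 40 genes were higher and 0 were lower, against 16.6% and 0.359% of all introns. After WBP11 degradation 50 of 385 (13%) in 33 genes were higher and 5 in 4 genes were lower, against 13.8% and 1.37% of all introns. These shares lie near the background, so the counts are no result about solute carriers as a class. The changes sat in particular genes and introns, which the rest of the text describes.

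The median difference over solute carrier introns was 0.607 points after WBP11 siRNA, where it was 0.756 over all introns. It was 3.05 points after SNW1 siRNA, against 2.63 over all. It was 1.49 points after degradation, against 1.45 over all. Retention exceeded the control by any amount at 180 introns (60.4%) after WBP11 siRNA, 350 (90.9%) after SNW1 siRNA and 270 (70.1%) after degradation. Over all introns these shares were 59.6%, 91.3% and 72.8%. Among the introns called higher, a counting interval wholly above 0 was found for 21 of 27, 63 of 76 and 43 of 50, and among those called lower an interval wholly below 0 for 2 of 5 after WBP11 siRNA and 1 of 5 after degradation. Over all introns called higher it was 1138 of 1457, 3216 of 3876 and 2479 of 3015. Over all introns called lower it was 128 of 272 after WBP11 siRNA and 152 of 298 after degradation.

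**Figure D1:**
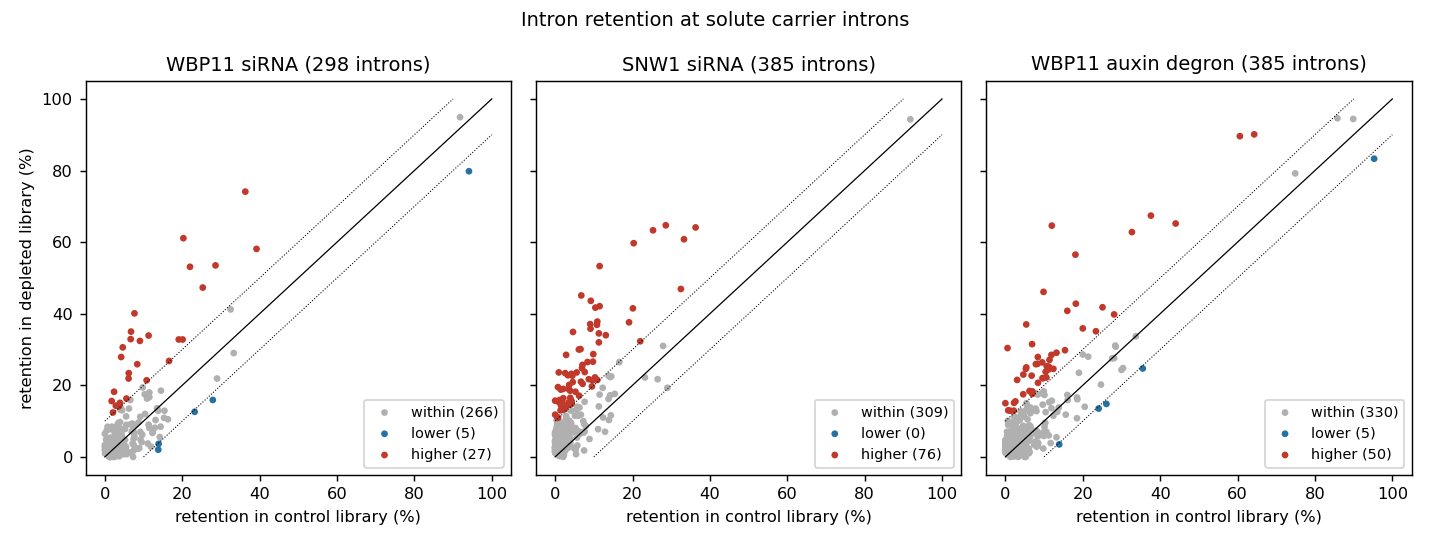
Retention of each compared solute carrier intron in the control library (x axis, percent) and the depleted library (y axis, percent), 1 point per intron and 1 panel per comparison; dotted lines mark a difference of 10 points. Most points lie near the diagonal, and the 27, 76 and 50 introns called higher spread upwards, while 5, 0 and 5 lie below the lower line after WBP11 siRNA, SNW1 siRNA and degradation.

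The carriers of inorganic ions and of acid and base equivalents held the most introns called higher. After WBP11 siRNA 15 of 78 introns in this group (19.2%) were higher and 0 lower, after SNW1 siRNA 29 of 99 (29.3%) were higher and 0 lower, and after degradation 17 of 100 (17%) were higher and 3 lower. They came from 5, 8 and 7 genes, so a few genes supply the counts. SLC26A6 alone gave 6 of them in each comparison.

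SLC26A6 encodes an exchanger of chloride, oxalate and bicarbonate in the apical membrane of intestine and kidney epithelium. Its intron 13, a 160 bp coding intron, was retained at 20.3% (14.8 to 27.4) in the control, with a depth of 31.4 and 123 spliced reads. It stood at 61.1% (52.7 to 68.8) after WBP11 siRNA and at 59.7% (52.5 to 66.4) after SNW1 siRNA, differences of 40.7 and 39.3 points. The WBP11 siRNA library carried a warning of uneven intron cover there. In the degron arm the same intron was at 28.4% in the control and 31.1% after degradation, a difference of 2.70 points (-7.89 to 13.3). The intron was thus far above the shared control in both siRNA libraries and within counting error of its own control in the degron arm.

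Intron 15 of SLC26A6 (80 bp, chr3:48628542-48628621) behaved differently. It was at 4.21% in the control, 27.9% after WBP11 siRNA and 23.2% after SNW1 siRNA, and it went from 12% (7.92 to 17.8) in the auxin control to 64.6% (56.7 to 71.8) after degradation. That difference of 52.6 points was the largest at any compared solute carrier intron of the 3 tables. The neighbouring intron 16 (395 bp) was at 19.1%, 32.8% and 37.6% in the control, WBP11 siRNA and SNW1 siRNA libraries, and at 25.1% and 41.8% in the auxin control and degron libraries. Intron 10 (91 bp) was at 6.13%, 21.9% and 30%, and at 11.3% and 25.1%. Introns 10, 15 and 16 were therefore higher in every depleted library.

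The other SLC26A6 introns were mixed. Intron 14 (927 bp) was at 8.37% in the control, 25.9% after WBP11 siRNA and 26.5% after SNW1 siRNA, but at 9.92% and 18.3% in the degron arm, short of the size rule. Intron 2 (86 bp) was at 2.84%, 14.3% and 10.5%, and at 6.78% and 22.7%, so it was higher after WBP11 loss by either route and 7.64 points above the control after SNW1 siRNA. Intron 9 (272 bp) was listed for SNW1 siRNA, at 2.84% and 28.5%, and for degradation, at 11.4% and 27.1%. Intron 8 (83 bp) was at 6.22% and 13.5% after WBP11 siRNA and at 10.7% and 25.3% in the degron arm. Introns 11, 12, 19 and 20 stayed at 4.42% or below in every library that listed them, and introns 4 and 5, listed in the degron arm alone, differed by -0.0011 and 2.27 points. Of the compared introns of this gene, 6 of 8, 6 of 9 and 6 of 14 were higher after WBP11 siRNA, SNW1 siRNA and degradation.

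**Figure D2:**
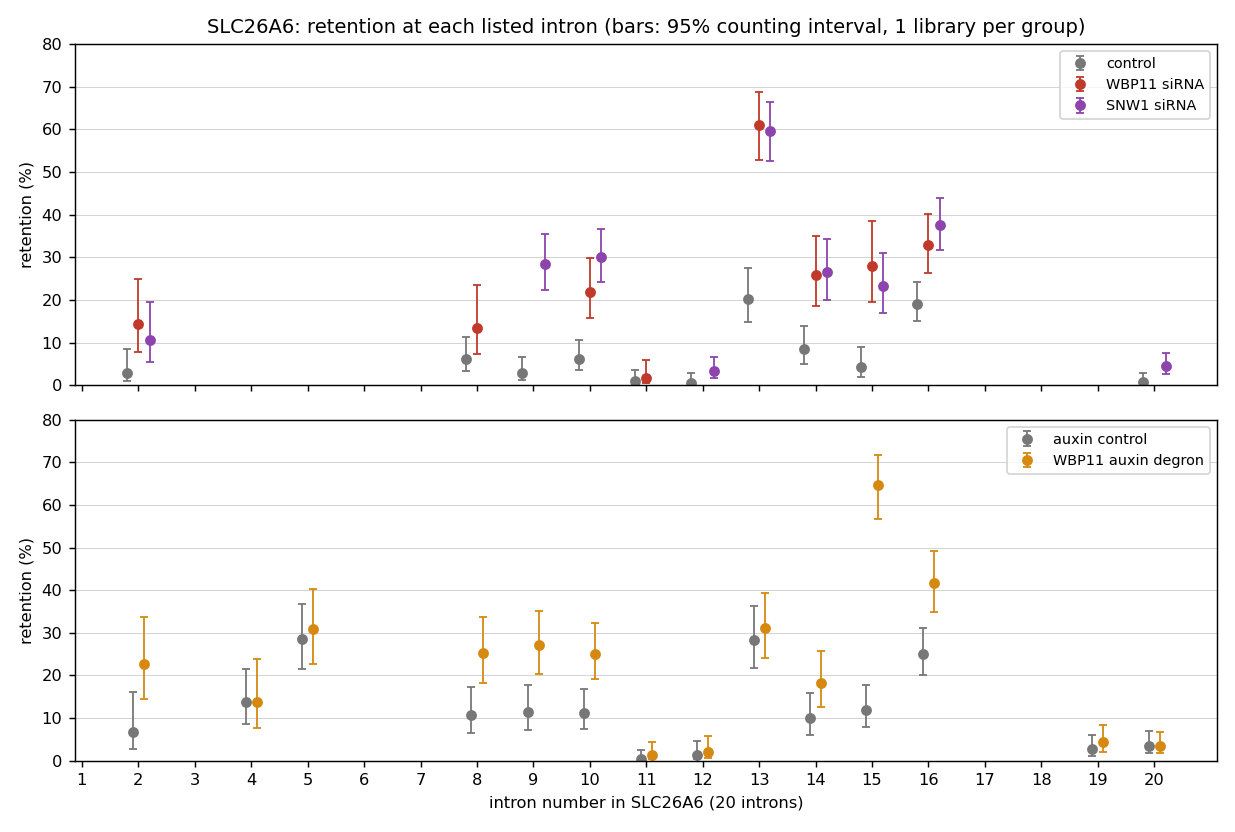
Retention (y axis, percent) at each compared intron of SLC26A6 (x axis, intron number), with the siRNA libraries and their control above and the degron pair below; points are single libraries and bars are 95% counting intervals. Intron 13 stands at 61.1% and 59.7% in the siRNA libraries and at 31.1% in the degron library, whereas intron 15 stands at 64.6% in the degron library.

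The chloride and bicarbonate exchangers of the SLC4 family, which set intracellular pH, were next. SLC4A3 had 4 of 8 compared introns higher after WBP11 siRNA, 5 of 12 after SNW1 siRNA and 2 of 14 after degradation, where 2 were lower. Its intron 8 (431 bp, chr2:219632443-219632873) was at 25.3% in the control, 47.3% after WBP11 siRNA and 63.3% after SNW1 siRNA, and at 44.0% and 65.2% in the degron arm. Intron 9 (264 bp) was at 4.62%, 30.6% and 34.9%. The WBP11 siRNA library had only 9 spliced reads at intron 8 and 12 at intron 9, and the interval of the intron 8 difference reached from -1.45 to 45.4 points.

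Further along SLC4A3 the libraries parted. Intron 19 (612 bp) was at 39.2% in the control and 58.1% after WBP11 siRNA, but at 35.5% and 24.7% in the degron arm. Intron 20 (694 bp) was at 33.3% in the control, 29% after WBP11 siRNA and 60.8% after SNW1 siRNA, and at 26.1% and 14.8% in the degron arm. Intron 11 was higher after WBP11 siRNA, from 3.62% to 14.1%, introns 6 and 14 after SNW1 siRNA, from 9.86% to 28.7% and from 10.9% to 37.8%, and intron 12 after degradation, from 11.1% to 24.4%. The other compared introns of SLC4A3 reached at most 8.65% after SNW1 siRNA, at most 16.3% after WBP11 siRNA and at most 8.57% after degradation.

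SLC4A2, the widely expressed anion exchanger AE2, had 6 of 13 compared introns higher after SNW1 siRNA, 0 of 12 after WBP11 siRNA and 1 of 13 after degradation. Intron 12 went from 10.4% (26.7 depth, 231 spliced reads) to 41.7% (88.1 depth, 123 spliced reads) after SNW1 siRNA, a difference of 31.4 points (23.6 to 38.8). At the same intron retention was 12% after WBP11 siRNA, and 7.85% and 13.5% in the degron arm. Introns 11, 14, 15, 18 and 19 ranged from 1.51% to 4.26% in the control and from 14.4% to 18.5% after SNW1 siRNA. All 13 compared introns of SLC4A2 were above the control in the SNW1 siRNA library, where 91.3% of all introns were. The intron higher after degradation was intron 8 (1892 bp), which went from 2.23% to 15.1%, and which stood at 8.31% after WBP11 siRNA from 3.58% in the control.

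SLC4A11, a proton-conducting member of the family known from the corneal endothelium, had 3 of 10 introns higher after WBP11 siRNA, 5 of 10 after SNW1 siRNA and 2 of 7 after degradation. Intron 10 (84 bp) was at 11.3% in the control, 33.9% after WBP11 siRNA and 34.5% after SNW1 siRNA. Intron 11 (254 bp), which overlaps an annotated exon, was at 16.6%, 26.8% and 26.5%, and at 20% and 35.9% in the degron arm. Intron 5 was at 1.76%, 15.6% and 14.2%, and introns 3, 12 and 14 were higher after SNW1 siRNA, at 11%, 26.6% and 13%. Intron 8 went from 0.0% to 15% after degradation, where the control had 29 spliced reads and no intron depth. These introns rested on 9 to 73 spliced reads a library.

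Among the other ion carriers, SLC8B1, the mitochondrial sodium and calcium exchanger, had its intron 5 (148 bp, chr12:113320908-113321055) at 9.06% in the control, 32.4% after WBP11 siRNA and 37.1% after SNW1 siRNA, and at 10.6% and 22.2% in the degron arm. It was higher in all depletions. SLC12A4, the potassium and chloride cotransporter KCC1, had 3 adjacent introns higher after degradation: introns 19, 20 and 21 stood at 0.546%, 4.63% and 9.85% in the auxin control and at 30.4%, 23.0% and 46.1% in the degron library. The control of that arm had 14, 27 and 42 spliced reads at these introns, and the other 8 compared introns of SLC12A4 reached at most 4.54% after degradation. Intron 20 was at 2.25% in the siRNA control, 0.319% after WBP11 siRNA and 4.37% after SNW1 siRNA, and introns 9 and 18 of the gene were higher after SNW1 siRNA, at 13.9% and 21.7%. The lower calls of this group after degradation were SLC4A3 introns 19 and 20 and SLC26A11 intron 13, which went from 13.9% to 3.49% with 12 spliced reads in its control.

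The nucleoside and nucleotide sugar carriers had 4 of 30 introns (13.3%) higher and 2 lower after WBP11 siRNA, 9 of 38 (23.7%) higher after SNW1 siRNA and 9 of 42 (21.4%) higher after degradation. The equilibrative nucleoside transporters SLC29A1 and SLC29A2, which carry nucleosides and nucleoside drugs across the plasma membrane, gave all of the changes after WBP11 siRNA. SLC29A2 intron 5 (388 bp, chr11:66368672-66369059) was at 36.3% (29.6 to 43.6) in the control, 74.1% after WBP11 siRNA and 64.1% after SNW1 siRNA. In the degron arm it was at 37.6% and 67.4%. The controls were close to each other at this intron, and every depleted library was 27.9 to 37.8 points above its control.

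Within SLC29A2 the direction differed between introns. Intron 4 (169 bp) was at 28.6% in the control, 53.5% after WBP11 siRNA and 64.7% after SNW1 siRNA. Intron 7 (223 bp) was at 3.91%, 15.1% and 16.5%, and at 7.87% and 25.9% in the degron arm. Intron 9 was higher after SNW1 siRNA, from 13.1% to 34%, and at 10.3% after WBP11 siRNA. Intron 8 (899 bp) was lower after WBP11 siRNA, from 23.2% to 12.6%, near the control after SNW1 siRNA, at 22.2%, and higher after degradation, from 28.1% to 39.8%. Intron 11 (1511 bp) was at 13.9%, 3.64% and 10.3%, and at 15.6% and 11.8% in the degron arm, and it overlaps an exon of a gene on the opposite strand. Introns 2, 3, 6 and 10 did not reach the size rule where they were compared. In the same gene after WBP11 siRNA, introns 4, 5 and 7 were thus higher while intron 11 was lower. The fall at intron 8 was -10.6 points in the deposited ratio and -8.83, -8.39 and -8.66 points with exact spliced reads, a pseudocount of 0.5 and the ratio recomputed from the reads, which ends that call.

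SLC29A1 intron 6 was at 10.8% in the control, 21.4% after WBP11 siRNA and 36.9% after SNW1 siRNA, and at 18.1% and 56.5% in the degron arm. It overlaps an annotated exon, so reads of that exon count as retention in every library. SLC35E2B, a member of the nucleotide sugar carrier family with no settled substrate, had intron 7 at 32.5% in the control, 41.2% and 46.9% in the siRNA libraries, and at 32.7% and 62.8% in the degron arm. Near-identical copies of this gene share reads, so its values are uncertain. SLC35B2, which brings the sulfate donor PAPS into the Golgi, had intron 2 at 4.45% and 22.7% for SNW1 siRNA and at 9.58% and 22% for degradation.

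Mitochondrial carriers of the SLC25 family had 1 of 49 introns (2.04%) higher after WBP11 siRNA, 8 of 66 (12.1%) after SNW1 siRNA and 10 of 70 (14.3%) after degradation. SLC25A22, a glutamate carrier of the inner membrane, had 4 of 5 compared introns higher after SNW1 siRNA. Its last intron, intron 9 (73 bp, chr11:792069-792141), was at 0.949% in the control and 23.6% after SNW1 siRNA, and went from 5.39% to 37% after degradation. After WBP11 siRNA the same intron was at 4.19%. Introns 2, 5 and 7 were at 15.7%, 24.8% and 22.8% after SNW1 siRNA, from 1.80%, 6.95% and 3.32%, and introns 5 and 7 were at 5.99% and 7.32% after degradation. SLC25A22 was thus higher at most of its compared introns after SNW1 siRNA and at its last intron after degradation.

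SLC25A39, needed for glutathione import into mitochondria, gave the mitochondrial intron called higher after WBP11 siRNA. Its intron 4 (279 bp) was at 2.38% in the control, 18.2% after WBP11 siRNA and 13.3% after SNW1 siRNA, with 295 to 575 spliced reads, and the interval of the first difference was 12.1 to 19.9 points. Intron 8 of the gene went from 3.62% to 20.1% after SNW1 siRNA and from 9.81% to 22% after degradation, and intron 10 (78 bp) went from 5.40% to 25% after degradation. SLC25A11, the oxoglutarate carrier, had intron 2 (84 bp) at 6.90% and 31.5% in the degron arm. SLC25A29, a carrier of basic amino acids, had the mitochondrial intron called lower, with 13.8% in the control and 2.01% after WBP11 siRNA at its 7313 bp intron 1, on 30 and 20 spliced reads.

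The metal ion carriers had 2 of 21 introns (9.52%) higher after WBP11 siRNA, 4 of 27 (14.8%) after SNW1 siRNA and 1 of 29 (3.45%) after degradation, where 1 was lower. SLC39A4, the zinc importer of enterocytes, had its last intron, intron 11 (92 bp), at 6.18% in the control, 23.4% after WBP11 siRNA and 17.1% after SNW1 siRNA, and at 16% and 40.8% in the degron arm. SLC41A1, a magnesium transporter, had introns 5 and 6 at 9.22% and 9.15% in the control and at 43.6% and 35.8% after SNW1 siRNA. After WBP11 siRNA these introns were at 4.82% and 7.0%, and in the degron arm intron 6 was lower, at 24.1% and 13.5%. SLC39A13, a zinc transporter of intracellular membranes, had intron 9 at 20.1%, 32.8% and 41.5% in the control and the 2 siRNA libraries, and at 18.5% and 16.6% in the degron arm. That intron overlaps an annotated exon.

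Carriers of vitamins, lipids and other substrates had 3 of 27 introns (11.1%) higher after WBP11 siRNA, 7 of 40 (17.5%) after SNW1 siRNA and 3 of 31 (9.68%) after degradation. SLC19A2, the thiamine transporter THTR1, had intron 4 (391 bp, chr1:169468253-169468643) at 7.65% in the control, 40.1% after WBP11 siRNA and 23.7% after SNW1 siRNA, and at 8.39% and 27.9% in the degron arm. SLC52A3, a riboflavin transporter, had intron 4 (1673 bp) at 6.76%, 35% and 45.1%, and at 30.4% and 24.8% in the degron arm. SLC33A1, the acetyl-CoA transporter of the endoplasmic reticulum, had intron 3 at 6.67%, 32.9% and 21%, and its difference was 0.753 points in the degron arm. SLC27A4, a fatty acid transport protein, had intron 8 at 6.57% and 30.1% for SNW1 siRNA. SLC19A1, the reduced folate carrier, had intron 3 at 64.3% and 90.1% in the degron arm on 25 and 2 spliced reads. That intron belongs to a non-coding transcript and lies over exons of the gene and of COL18A1 on the opposite strand.

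Amino acid, peptide and neurotransmitter carriers had few introns called higher, at 1 of 47 (2.13%) after WBP11 siRNA, 7 of 68 (10.3%) after SNW1 siRNA and 3 of 68 (4.41%) after degradation. SLC38A10, an amino acid transporter of the SNAT group, had the largest solute carrier rise after SNW1 siRNA. Its intron 13 (582 bp, chr17:81251613-81252194) was at 11.5% (8.55 to 15.4) in the control and at 53.3% (46.5 to 59.9) after SNW1 siRNA, and it overlaps an exon of a gene on the opposite strand. SLC6A9, the glycine transporter GlyT1, had introns 12 and 13 at 7.07% and 1.16% in the control and at 25.7% and 15.9% after SNW1 siRNA, and intron 13 went from 6.22% to 18.4% after degradation. SLC7A6, a cationic amino acid exchanger, had its last intron at 5.58%, 16.3% and 23.6% in the control, WBP11 siRNA and SNW1 siRNA libraries. SLC38A2, the stress-responsive transporter SNAT2, had intron 9 (87 bp) at 9.52% and 26.4% in the degron arm, with 176 and 780 spliced reads. SLC7A8, the exchanger LAT2, was lower at intron 1, with 94.1% and 79.8% for WBP11 siRNA and 95.3% and 83.3% for degradation. That intron of the 5' UTR overlaps an annotated exon and had only 4 and 6 spliced reads in the controls. With exact spliced reads its differences of -14.3 and -12 points shrank to -7.55 and -9.88. With a pseudocount of 0.5 they were -10.3 and -9.9, and recomputed from the reads they were -10.4 and -10.1. Each call was thus lost under some alternatives and kept under others. The counting interval of each deposited difference lay below 0.

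Sugar carrier families had 0 of 33 introns higher and 1 lower after WBP11 siRNA, 9 of 36 (25%) higher after SNW1 siRNA and 6 of 33 (18.2%) higher after degradation. The glucose transporter SLC2A8 had 3 of 4 introns higher after SNW1 siRNA: introns 1, 2 and 8 stood at 0.843%, 11.5% and 11.3% in the control and at 15.4%, 42.1% and 32% in the depleted library. SLC37A4, the glucose-6-phosphate transporter of the endoplasmic reticulum, had intron 7 at 1.79% and 14.8% in the same comparison. SLC5A6 belongs to a sugar carrier family but carries biotin and pantothenate, and its introns 13, 15 and 16 went from 6.94% to 17.6%, from 8.31% to 26% and from 11.1% to 25.2% after degradation. Its intron 5 went from 9.66% to 21.4% after SNW1 siRNA. Its intron 8 was the lower call after WBP11 siRNA, at 27.9% and 15.9%, and its remaining 5 introns in the degron arm stayed within the size rule. SLC2A4RG, a regulator of a glucose transporter gene and not a carrier, had introns 4 and 6 at 24.6% and 42.8% after degradation, from 5.29% and 18.2%, and both overlap annotated exons.

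Organic anion, cation and carboxylate carriers had 1 of 13 introns (7.69%) higher after WBP11 siRNA, 3 of 11 (27.3%) after SNW1 siRNA and 1 of 12 (8.33%) after degradation. SLC16A5, the monocarboxylate transporter MCT6, was higher at intron 6 (1699 bp, chr17:75104181-75105879) in every comparison. It was at 22% in the control, 53.1% after WBP11 siRNA and 32.3% after SNW1 siRNA, and at 60.6% and 89.6% in the degron arm. Its spliced reads were 479 in the control, 58 after WBP11 siRNA and 46 after SNW1 siRNA, and 38 and 4 in the degron arm. SLC10A3 intron 2 and SLC16A3 intron 4, the latter in the lactate exporter MCT4, were at 20.4% and 14.8% after SNW1 siRNA, from 7.11% and 4.23%.

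Of the 156 introns compared in every table, 11 introns in 8 genes were higher in all 3 comparisons, where 5.82% of all 8601 such introns were. They are SLC26A6 introns 10, 15 and 16, SLC29A2 introns 5 and 7, SLC4A3 intron 8, SLC19A2 intron 4, SLC8B1 intron 5, SLC39A4 intron 11, SLC29A1 intron 6 and SLC16A5 intron 6. In 9 of the 11 the counting interval of each difference lay above 0. The deposited names mark 1 of them, SLC29A1 intron 6, as overlapping a known exon. That intron, SLC26A6 intron 16, SLC19A2 intron 4 and SLC39A4 intron 11 each lie within an exon of an annotated transcript that keeps the intron. The siRNA comparisons share their control library. WBP11 siRNA and WBP11 degradation share no library, and of 193 solute carrier introns compared in both, 23 were higher after siRNA, 35 after degradation and 13 after both. This is 56.5% of the first list and 37.1% of the second. Over all introns the same overlap was 66.8% of the first list and 33.7% of the second. For SNW1 siRNA and WBP11 degradation it was 19 of 224 solute carrier introns, 35.8% and 50% of the lists, against 42.0% and 51.8% over all introns.

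**Figure D3:**
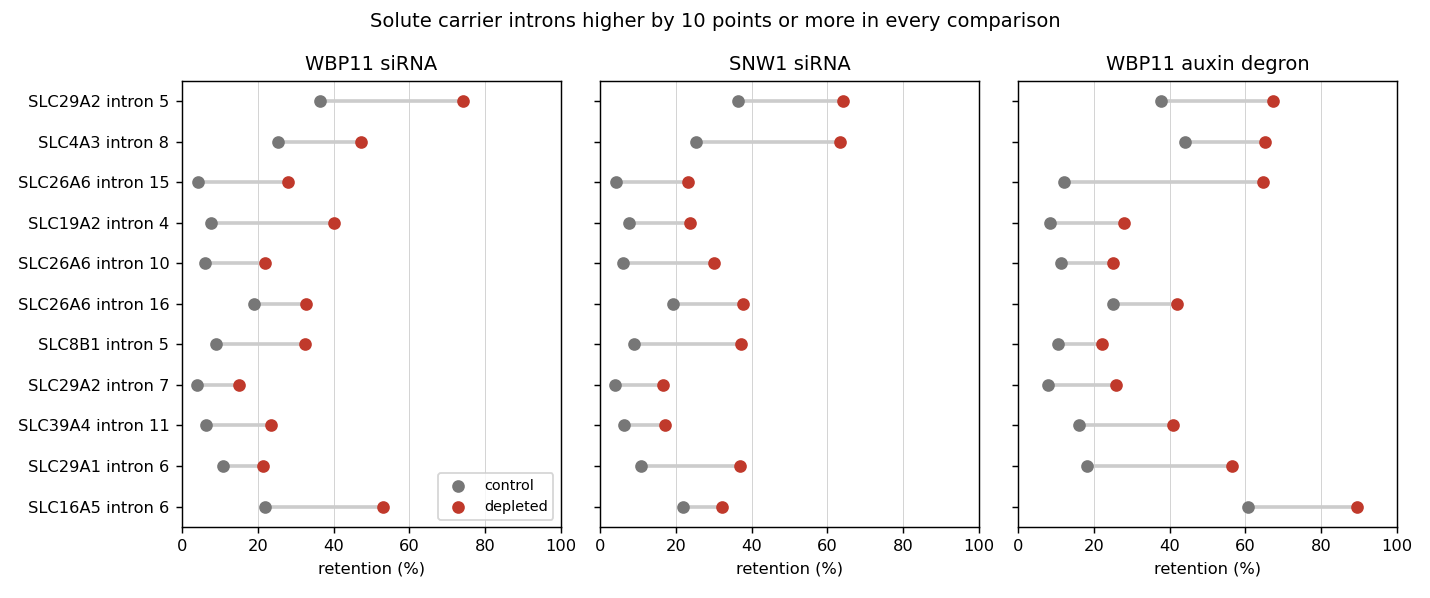
Retention (x axis, percent) in the control (grey) and depleted (red) library for the 11 solute carrier introns higher by 10 points or more in every comparison, 1 library per point. The 2 siRNA panels share their control; SLC29A2 intron 5 moves from 36.3% to 74.1% and 64.1%, and from 37.6% to 67.4% in the degron arm.

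The rises were spread unevenly over genes. After WBP11 siRNA 17 of the 27 introns called higher lay in 5 genes, and 4 of 111 genes had 2 or more. After SNW1 siRNA 26 of the 76 lay in 5 genes and 16 of 125 genes had 2 or more. After degradation 17 of the 50 lay in 5 genes and 10 of 125 genes had 2 or more. Introns of 1 gene share their transcript and are not separate samples.

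The introns called higher had a median length of 279 bp against 636 bp for the other solute carrier introns after WBP11 siRNA, 268 bp against 724 bp after SNW1 siRNA and 218 bp against 661 bp after degradation. Above 1000 bp, 2 of 105 (1.9%), 5 of 128 (3.91%) and 8 of 137 (5.84%) introns were higher. Over all introns of that length the shares were 2.55%, 6.18% and 5.34%. At up to 100 bp the numbers were 5 of 44 (11.4%), 16 of 56 (28.6%) and 19 of 58 (32.8%), against 16.4%, 26.9% and 39.2% of all introns of that length. Above 100 and up to 300 bp the shares were 17.2%, 30.7% and 14.8%, against 13.6%, 24.1% and 13.2% of all introns. After both siRNAs the solute carrier share was thus highest in this middle class. Over all introns it was highest at up to 100 bp in every comparison. The higher calls over all introns also had the shorter median lengths, at 175, 224 and 109 bp against 464, 594 and 616 bp.

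**Figure D4:**
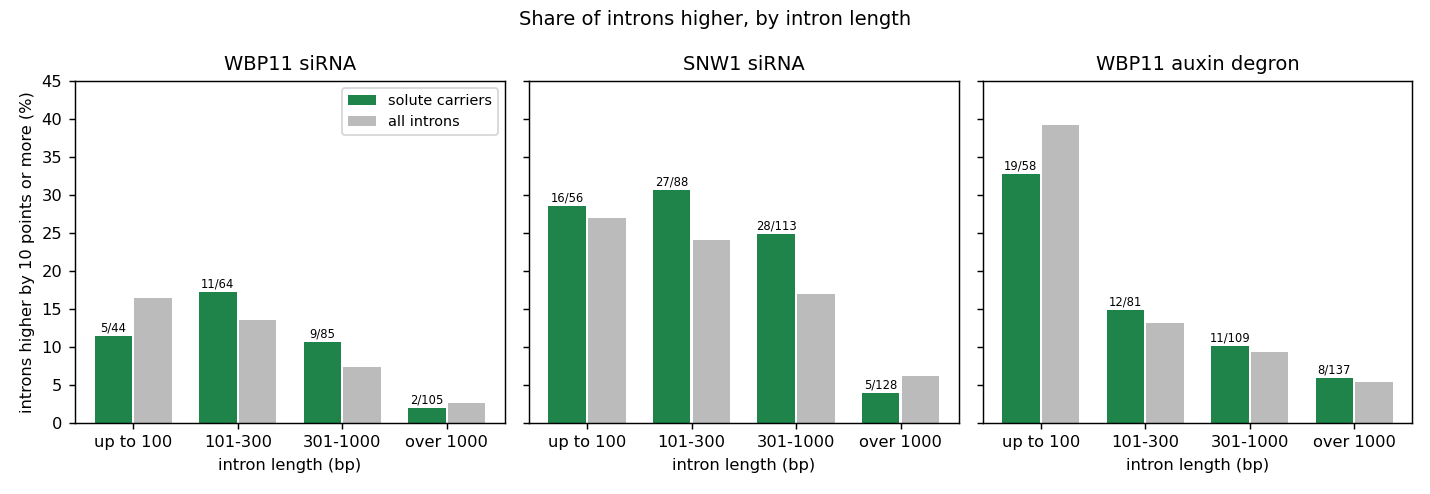
Share of introns higher by 10 points or more (y axis, percent) by intron length class (x axis, bp), for solute carrier introns (green, with counts) and all introns (grey), 1 panel per comparison. The share is lowest above 1000 bp in every panel, at 2 of 105, 5 of 128 and 8 of 137 solute carrier introns, and after degradation it is highest at up to 100 bp, at 19 of 58.

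Introns that GENCODE already annotates as kept in some transcript held a larger share of higher calls than the rest in these libraries. It was 10 of 51 (19.6%) against 17 of 247 (6.88%) after WBP11 siRNA, 24 of 54 (44.4%) against 52 of 331 (15.7%) after SNW1 siRNA and 22 of 65 (33.8%) against 28 of 320 (8.75%) after degradation. This split and those by position were made for solute carrier introns only. With no share over all introns, they are no result about solute carriers as a class. The median retention in the control was also larger for the introns called higher, at 7.65% against 2.30%, 5.42% against 1.21% and 9.83% against 2.42%. Over all introns it was 7.46% against 2.03%, 5.18% against 0.993% and 6.29% against 1.88%. The first intron of a gene was higher in 0 of 17, 3 of 22 and 4 of 19 cases. The last intron was higher in 4 of 42, 12 of 56 and 9 of 60 cases, and introns between the first and the last in 23 of 239, 61 of 307 and 37 of 306. Of the 589 introns, 573 lie within coding sequence, 14 in the 5' UTR, 1 in the 3' UTR and 1 in a non-coding transcript. The 5' UTR introns were higher in 0 of 6, 4 of 8 and 2 of 8 cases, and those after SNW1 siRNA include SLC35A4 intron 2, which went from 0.733% to 19.5% and was singled out after its values were seen.

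Most listed solute carrier introns had low retention in the controls. The median retention was 1.70% over 457 introns in the siRNA control and 2.86% over 396 in the auxin control, and 47 and 68 of them reached 10%. The highest values in the siRNA control were SLC7A8 intron 1 at 94.1% and SLC39A13 intron 10 at 91.8%, which overlap annotated exons, followed by SLC4A3 intron 19 at 39.2%, SLC29A2 intron 5 at 36.3% and SLC4A3 intron 20 at 33.3%. In the auxin control they were SLC7A8 intron 1 at 95.3%, SLC39A13 intron 10 at 89.9%, SLC10A3 intron 3 at 85.8%, SLC52A3 intron 5 at 74.9% and SLC19A1 intron 3 at 64.3%, all over annotated exons. SLC29A2 intron 5 and SLC4A3 introns 8, 19 and 20 were thus partly retained without depletion.

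The 2 controls differ in line and treatment, and of 266 solute carrier introns measured in both, 8 were higher in the auxin control (3.01%) and 1 was lower (0.376%), against 5.01% and 0.844% of all 15056 introns. The introns that differed most were SLC16A5 intron 6, at 22% and 60.6%, SLC52A3 intron 4, at 6.76% and 30.4%, and SLC6A9 intron 12, at 7.07% and 27.6%. SLC4A3 intron 8 and SLC41A1 intron 6 were also higher in the auxin control, at 44.0% against 25.3% and at 24.1% against 9.15%. SLC16A5 intron 6 and SLC4A3 intron 8 are among the introns higher in every comparison, so their retention after siRNA and after degradation starts from different levels.

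Other membrane transport genes gave a yardstick. ABC transporters, which are ATP-driven pumps, had 23 of 99 introns (23.2%) higher after WBP11 siRNA, 36 of 125 (28.8%) after SNW1 siRNA and 30 of 128 (23.4%) after degradation, in 6, 8 and 8 genes. Proton and sodium pump subunits, carrier chaperones and other transporters had 5 of 46 (10.9%), 15 of 67 (22.4%) and 10 of 66 (15.2%). The solute carriers' 9.06%, 19.7% and 13% lay near the shares of all introns, which were 9.07%, 16.6% and 13.8%. The ABC transporters lay above both in each comparison, with few genes supplying their counts. No test of the difference could be made with 1 library a group.

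Spliced reads, summed per gene over compared introns and set against the median gene of the table, describe how much spliced message each gene had. They are not library depth, and genes with fewer than 200 spliced reads over both libraries were left out. After WBP11 siRNA 0 of 83 solute carrier genes had 2-fold more and 10 had 2-fold less than the median gene's ratio, where 2.21% and 7.76% of all genes did. After SNW1 siRNA 2 of 94 had more and 19 less, against 4.46% and 10.3%. After degradation 12 of 92 (13%) had more and 15 (16.3%) less, against 6.77% and 8.11%. Genes named in the next sentences were chosen after their values were seen.

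SLC7A11, the cystine and glutamate exchanger, had 644 spliced reads after degradation and 79 in the auxin control, 6.57 times the median gene's ratio. SLC3A2, the heavy chain that carries SLC7A11 and other amino acid transporters to the membrane, had 28970 against 5256 (4.47 times). SLC38A2 had 9465 against 1810 (4.24 times). These 3 genes of amino acid transport thus had several times more spliced reads in the degron library. The other genes of that class ranged there from 0.462 (SLC38A10) to 2.38 times (SLC6A20). After WBP11 siRNA the ratio was 0.505 for SLC7A11 and 1.24 for SLC38A2. After SNW1 siRNA it was 1.26 for SLC7A11, 1.46 for SLC3A2 and 1.99 for SLC38A2. SLC4A3, with 2480 against 494 (4.06 times), and SLC2A3, the glucose transporter GLUT3, with 1176 against 246 (3.87 times), were also high in the degron library. SLC25A25, a mitochondrial ATP-Mg and phosphate carrier, had 1637 against 406 (3.26 times).

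Of the 10, 19 and 15 genes at the low end after WBP11 siRNA, SNW1 siRNA and degradation, 4, 10 and 8 had an intron called higher, as did 12 of 83, 33 of 94 and 29 of 92 genes in the whole sum. These counts were made for solute carrier genes only. With no share over all genes, they are no result about solute carriers as a class. The measures are not independent, since spliced reads also enter the retention ratio. SLC29A2 had 366 against 927 spliced reads after WBP11 siRNA (0.393), 429 against 1064 after SNW1 siRNA (0.490) and 389 against 1171 after degradation (0.269). SLC16A5 had 58 against 479 (0.121) and 46 against 479 (0.118) in the siRNA libraries, at 1 compared intron. SLC25A10, the dicarboxylate carrier, had 471 against 1880 after degradation (0.203), where its last intron was at 4.61% and 17.5%. SLC4A3 was low after WBP11 siRNA, with 163 against 510 (0.319), and after SNW1 siRNA, with 245 against 715 (0.417), and high after degradation. Whether the genes' total message changed was not tested.

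**Figure D5:**
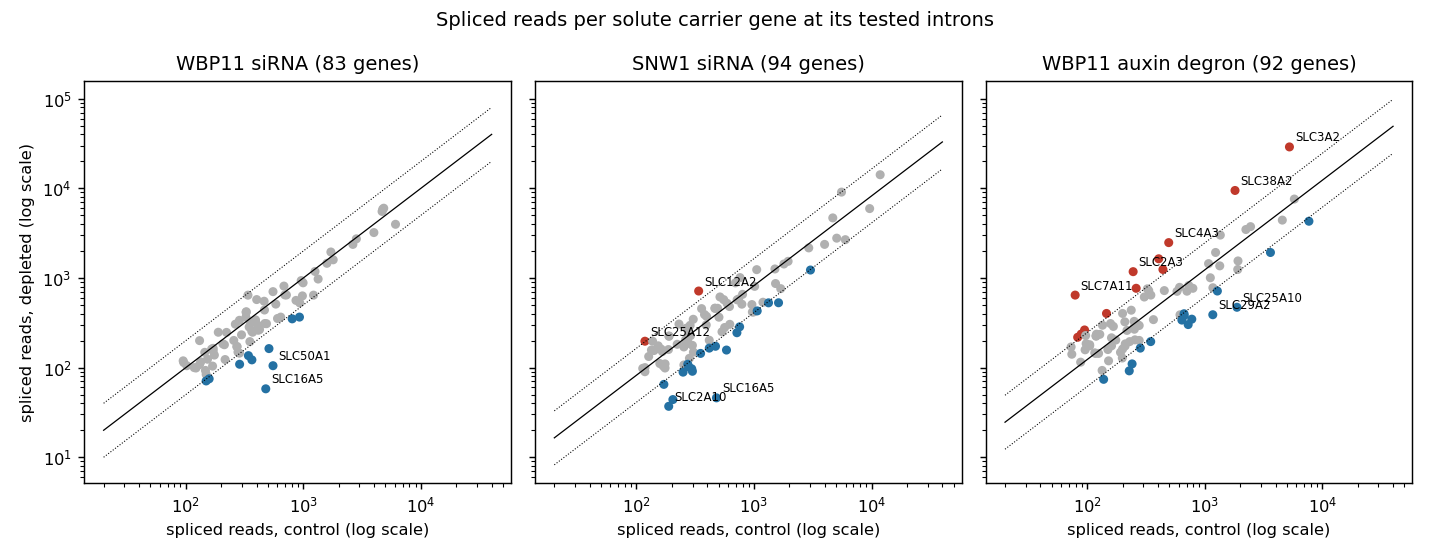
Spliced reads per solute carrier gene in the control (x axis, log scale) and the depleted library (y axis, log scale), 1 point per gene; the solid line is the median gene's ratio and dotted lines are 2-fold above and below it. After degradation 12 genes lie above the band, among them SLC7A11, SLC3A2 and SLC38A2, while 10, 19 and 15 genes lie below it in the 3 panels.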

How the data were processed

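PolyA RNA of 5 DLD-1 libraries was compared in 3 tables, each holding 1 depleted library and 1 control. Per the file headers the tables come from IRFinder's directional output on STAR alignments, and per the submitters' processing notes the tools RSEM and bedtools and the build hg38 were used. Tool versions were not given in the sources used here. Deposited values are of 3 kinds. The retention ratio and intron cover are deposited as a fraction, the intron depth as a coverage signal, and the spliced reads as a count. None was scaled between libraries, and the deposited p-values were not used.

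The control had identical depths and spliced reads in both siRNA tables over 13412 shared introns and was treated as shared. Reads of overlapping exons, of the opposite strand or of a minor isoform can count as retention. The deposited ratio lay within 0.5 points of depth over depth plus spliced reads for 255 to 358 of the 298 or 385 introns in each library, and off by more than 10 points for 0 to 2. The depth minimum of 10 left out 4, 9 and 12 solute carrier introns of the WBP11 siRNA, SNW1 siRNA and degron tables. Nearest to it from outside were SLC35E3 intron 2, SLC25A42 intron 5 and SLC16A9 intron 5, with 8.63, 9.0 and 9.92 in the shallower library. Retention in control and depleted libraries there was 7.84% and 14%, 3.0% and 20.3%, and 7.3% and 5.72%. Nearest from inside were SLC9A8 intron 9 (11.9% and 2.87%), SLC38A7 intron 6 (2.28% and 14%) and SLC4A8 intron 24 (0.0% and 3.66%).

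All 589 introns matched GENCODE release 29, from whose transcripts the printed sequences were read. Carriers were grouped by family number. With 1 library a group there was no model fit, and p-values were not calculated. Calculations used Python 3.11.15, pandas 2.3.3, numpy 2.4.6 and scipy 1.17.1. The calls were run on simulated data with planted rises larger than the size rule and counting error only. That run held no variation between libraries, so it cannot show how often such variation gives a call. The named introns are, per comparison, the 10 largest rises and 5 largest falls, the 2 genes with the largest rise and 1 with the largest fall per class, every intron higher in all comparisons, the genes with the most introns higher, and the 5 most retained introns per control. Members and lists were chosen with earlier results of these data known. The spliced reads per gene, the ratio recomputed from depth and spliced reads and the comparison of the controls were chosen after seeing the data. Alternatives were other size rules and depth minimums, calls by the interval, introns without a warning, 1 intron per gene, median centring and ratios recomputed from the reads.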

Additional observations from a re-analysis of the deposited data

Results flagged for a closer look

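SLC4A3 intron 19 (612 bp, in the anion exchanger AE3) moved in opposite directions in libraries depleted of WBP11 by different routes. Its difference from the control was 18.9 points (-5.29 to 40.3) after siRNA and -10.8 points (-26.2 to 2.84) after degradation. SLC4A3 intron 20 (694 bp), next to it, differed by 27.6 points (4.01 to 47.5) after SNW1 siRNA and by -11.3 points (-25.4 to 0.126) after WBP11 degradation. SLC4A3 had 163 and 245 spliced reads over its compared introns in the WBP11 and SNW1 siRNA libraries and 2480 in the degron library.

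SLC41A1 intron 6 (617 bp, in a magnesium transporter) differed by 26.6 points (14.4 to 38.8) after SNW1 siRNA and by -10.6 points (-24.3 to 0.74) after WBP11 degradation. SLC29A2 intron 8 (899 bp, in a nucleoside transporter) differed by 11.6 points (-1.87 to 25.5) after degradation and by -10.6 points (-19.7 to 0.36) after WBP11 siRNA. All 4 introns were singled out because 1 comparison put them at least 10 points above its control and another at least 10 points below. For SLC29A2 intron 8 this holds for the deposited ratio alone, since its fall was -8.83, -8.39 and -8.66 points under the 3 alternatives. The difference between comparisons was not tested, since each group had 1 library, and of the 8 intervals only those for SNW1 siRNA exclude 0.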

How the results depend on the processing

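No paired analysis was possible because the labels give no replicate numbers and each group had 1 library. A size rule of 5 points gave 48, 129 and 93 solute carrier introns higher after WBP11 siRNA, SNW1 siRNA and degradation, 18, 3 and 17 lower, and 20 higher in all comparisons. A rule of 20 points gave 12, 24 and 13 higher, 0 lower after WBP11 siRNA and degradation, and 2 higher in all. Introns without a warning, which leave 122, 172 and 163, gave 10, 34 and 23 higher, and 1 and 3 lower after WBP11 siRNA and degradation. With 1 intron per gene 8, 21 and 17 were higher, and 2 and 0 lower after WBP11 siRNA and degradation. Calls by the counting interval left 2 and 1 lower in those comparisons. After SNW1 siRNA, where 0 were lower, exact spliced reads gave 2 lower and centring on the median of all introns gave 1. Centring left 22, 54 and 47 introns higher after WBP11 siRNA, SNW1 siRNA and degradation, against 27, 76 and 50 without it. It also turned the median difference after WBP11 siRNA to -0.149 points, below the median of all introns. The largest rises and falls per comparison and the introns higher in all gave 66 differences, an intron counting once per comparison. Of their 198 alternative values 196 moved by no more than the average distance from the difference to the ends of its counting interval. The sign changed in 0. The lower calls at SLC29A2 intron 8 after WBP11 siRNA and at SLC7A8 intron 1 after WBP11 siRNA and degradation fell short of 10 points under some alternatives, at -8.83 to -8.39, -7.55 and -9.9 to -9.88 points. SLC29A2 intron 4 after SNW1 siRNA moved from 36.1 points to 51.9 with exact spliced reads and 52.1 when recomputed from depth and spliced reads, where 7 spliced reads are listed and the deposited ratio implies more. Depth is a limit where libraries had under 10 spliced reads at an intron, as in SLC4A3, SLC4A11, SLC16A5, SLC7A8 and SLC19A1.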
